A study of Drosophila melanogaster with 4 samples.

Results

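The metallothionein genes *MtnA*, *MtnB*, *MtnC* and *MtnD*, the ferritin genes *Fer1HCH* and *Fer2LCH* and the transferrin gene *Tsf1* were followed in *Drosophila melanogaster* larvae mutant for *ash2*, a trithorax group gene that maintains active transcription through chromatin. These 7 genes, of 12058 with a named probe, were taken by their symbols as genes of metal handling, and 6 of them lie on chromosome arm 3R and 1, *Tsf1*, on X. The mutant samples were whole larvae of the strain w1118;+;ash2I1 and the controls whole larvae of the isogenic strain w1118;+;+, all early in the third instar, wandering, and staged by the blue dye in their gut. Mutant RNA came from 2 extractions, each hybridised to 2 two-colour arrays with the mutant in Cy5, against 1 pool of wild-type RNA in Cy3. With the dyes exchanged on no array, effects of the dye on a probe and of the genotype cannot be told apart. The mutant stock was kept over the balancer TM6c, and larvae without its Tubby marker were selected. Chromosomes X, Y and 2 of that stock had been replaced by those of the wild-type line, and chromosome 3, with the *ash2I1* allele and the 6 genes on 3R, had not, so effects of the allele and of other differences on chromosome 3 cannot be told apart for any of the 7 genes.

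Metallothioneins are short proteins rich in cysteine that bind copper, zinc and cadmium, and in flies their genes are switched on by metal through the transcription factor MTF-1. Insect ferritin is assembled from a heavy chain, encoded by *Fer1HCH*, which oxidises iron, and a light chain, encoded by *Fer2LCH*, which helps to form the mineral core. It is loaded in the secretory pathway, and the larval midgut is one of its main sites. Transferrin 1 binds iron in the haemolymph, carries it between the gut and the fat body, and is also known as a protein that increases in infection.

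The deposited values are normalised log2 ratios, in which a positive value most likely means a higher level in the mutant. This direction, and the base of the logarithm, follow from the dyes in the labels and the convention of the software, and are not written in the values. Of 16416 probes, 70.7% had no value on any array, and the arrays held between 1108 and 3513 values each. The pool is a single control whose spread does not enter the tests, so each test rests on n = 2 extractions. The p-values measure the spread between extractions only, with that of each gene drawn towards the spread of all tested genes. The labels call the extractions biological replicates. The single probe of *ash2* had no value, so the mutated gene could not be checked. In RNA of whole larvae, fewer cells of a type and less RNA per cell cannot be told apart.

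The 7 genes did not move together. *Tsf1* was 2.96-fold higher in the mutant and *MtnD* 3.21-fold lower, while *MtnA*, *Fer1HCH* and *Fer2LCH* did not pass the test. *MtnB* and *MtnC* had values in 1 extraction each and could not be tested. Of the 5 tested members 1 was thus called higher and 1 lower, at an adjusted p under 0.05 in limma with at least a 2-fold change. Among all 1659 tested genes 6.63% were called, 3.8% higher and 2.83% lower. The median log2 ratio of the 5 tested members was 0.41, against 0.01 over all tested genes, and 4 of the 5 were above 0, as were 50.9% of all tested genes. Both calls depended on the arrays used, since neither gene passed without array 2 or without array 3. Array 2 holds no value of *MtnD*, and without array 3 none of the 358 genes that could be tested passed. Without array 1 *MtnD* has no value in extraction 1 and could not be tested.

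**Figure D1:**
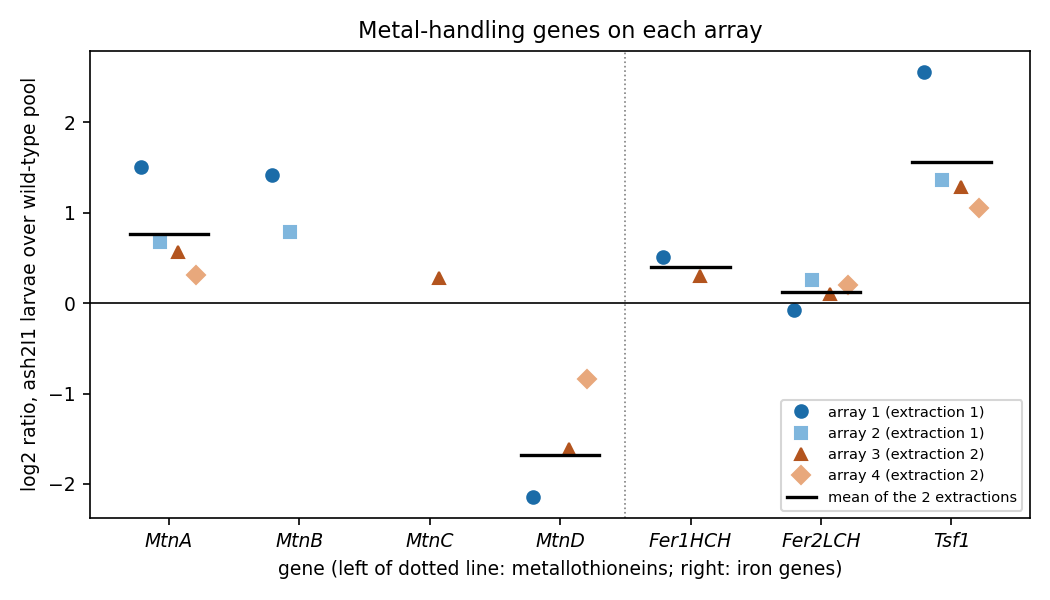
Log2 ratio (mutant larvae over wild-type pool, vertical axis) of each of the 7 genes on each array, with arrays 1 and 2 from extraction 1 and arrays 3 and 4 from extraction 2. Black bars are the mean of the 2 extractions. All 4 points of *Tsf1* and *MtnA* lie above 0, and all 3 of *MtnD* below it.

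*Tsf1* was measured by 1 of its 2 probes, and the other had no value. Its log2 ratios were 2.56 and 1.36 on the arrays of extraction 1, and 1.29 and 1.06 on those of extraction 2. All 4 values exceeded a 2-fold change, the highest, on array 1, being 5.89-fold and the lowest, on array 4, 2.08-fold. Over the extractions the log2 ratio was 1.57 on average, with 1.96 in the first and 1.17 in the second, and the moderated standard error (SE) was 0.23 (n = 2, adjusted p = 0.0401, limma). The 95% interval of the ratio was 1.91-fold to 4.58-fold. *Tsf1* ranked 32 from the top of 1659 tested genes, and on each array at least 96.6% of the measured genes had a lower value. Leaving out array 2 gave an adjusted p = 0.0741, and leaving out array 3 one of 0.103, with log2 ratios of 1.87 and 1.51.

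*MtnD* moved the other way. Its log2 ratio was -2.14 on array 1, the only value of extraction 1, and -1.62 and -0.84 on the arrays of extraction 2. These are levels 4.41-fold, 3.07-fold and 1.79-fold lower in the mutant. All 3 values lie below 0, and only that of array 4 is smaller than a 2-fold change. The mean of the extractions was -1.68 ± 0.26 (SE, n = 2, adjusted p = 0.0409, limma), with a 95% interval of 1.97-fold to 5.23-fold lower. *MtnD* was thereby number 19 from the bottom of 1659 tested genes, and on arrays 1 and 3 fewer than 1% of the genes had a lower value (0.967% and 0.899%), against 3.97% of 378 genes on array 4. Leaving out array 2, which holds no value of *MtnD*, moved its adjusted p to 0.057 through the other genes, with the same mean of -1.68, and leaving out array 3 gave a mean of -1.49 and an adjusted p = 0.154. With 1 probe per gene in place of the mean of probes it stood at the limit (adjusted p = 0.05001).

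The other metallothioneins had positive values. *MtnA* had log2 ratios of 1.51 and 0.67 in extraction 1, and of 0.56 and 0.31 in extraction 2. All 4 values lie above 0, and only that of array 1 exceeds a 2-fold change. Its mean was 0.76 ± 0.20 (SE, n = 2), or 1.70-fold, with a 95% interval of 1.15-fold to 2.50-fold, and it did not pass (adjusted p = 0.0885, limma). Of all tested genes, 92.3% had a lower log2 ratio. *MtnB* had 1.42 and 0.79 on the arrays of extraction 1 and no value in extraction 2. On these 2 arrays its value was close to that of *MtnA*, 0.09 below it on array 1 and 0.12 above it on array 2. *MtnC* had a single value, 0.28 on array 3. Spots that failed the quality limits of the authors, among them limits on signal over background and on saturation, were removed, so a missing value does not tell a low level from a high one.

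On the same arrays, *MtnA* exceeded *MtnD* by 3.65 log2 units on array 1, by 2.18 on array 3 and by 1.15 on array 4. The values of *MtnB* on array 1 and of *MtnC* on array 3 lay 3.56 and 1.90 units above those of *MtnD*. In all comparisons that an array allowed, *MtnD* was therefore the lowest of the metallothioneins, with a mean difference from *MtnA* of 2.45 ± 1.11 (SD, n = 2 extractions) that was not tested. Metallothionein genes are related in sequence, and whether a probe reads more than 1 of them was not examined, so values of single members remain uncertain to that extent. *MtnE* and *MtnF*, the remaining metallothionein genes of the fly, had no probe in the annotation used.

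The ferritin genes had smaller values and did not pass. *Fer1HCH* had a log2 ratio of 0.51 on array 1 and of 0.30 on array 3, with no value on the other two. Its mean was 0.41 ± 0.14 (SE, n = 2), or 1.32-fold, with a 95% interval of 1.02-fold to 1.72-fold (adjusted p = 0.13, limma). *Fer2LCH* had -0.08 and 0.25 in extraction 1 and 0.10 and 0.20 in extraction 2. These values fall on both sides of 0 and span 0.33 units. Its mean was 0.12 ± 0.13 (SE, n = 2, adjusted p = 0.543, limma), and the 95% interval was 0.85-fold to 1.38-fold, so a change of 2-fold in either direction lies outside it. *Fer1HCH* exceeded *Fer2LCH* by 0.59 on array 1 and by 0.20 on array 3, although the 2 chains are built into 1 complex and their genes are next to each other on 3R. This difference was not tested.

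**Figure D2:**
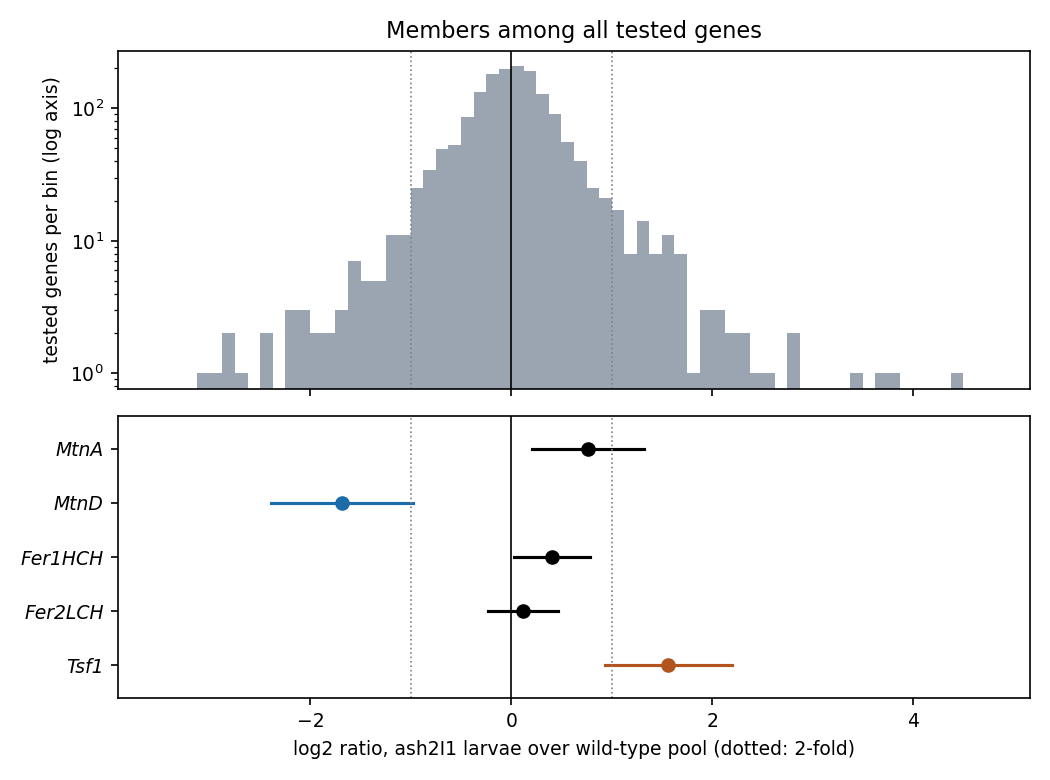
Upper panel: number of the 1659 tested genes (log axis) by log2 ratio, mutant larvae over wild-type pool. Lower panel: the 5 tested members on the same horizontal axis, each with its mean over the 2 extractions (point) and the 95% interval of limma (line). *MtnD* (blue) was called lower, *Tsf1* (orange) was called higher, and the genes in black did not pass.

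Set side by side, the means per extraction were of both signs among the metallothioneins and all positive among the iron genes, although *Fer2LCH* was below 0 on array 1. The 3 metallothioneins measured in extraction 1 ranged from -2.14 to 1.11, and the 3 iron genes from 0.09 to 1.96. In extraction 2 the metallothioneins ranged from -1.23 to 0.44 over 3 genes, and the iron genes from 0.15 to 1.17. The groups overlap in both extractions. Over all values, the median was 0.52 for the 4 metallothioneins and 0.41 for the 3 iron genes, a difference of 0.12. Its sign depended on the genes and extractions used. Over the tested members the median was -0.46 for the 2 metallothioneins and 0.41 for the 3 iron genes, the difference was -1.30 over genes on at least 3 arrays and -0.08 over genes on all 4, and in extraction 2 alone it was -0.02. *MtnA* minus *Tsf1* lay between -1.05 and -0.69 over the 4 arrays, and *Fer2LCH* minus *Tsf1* between -2.64 and -0.85, so *Tsf1* was the higher on every array. No test was made between the groups, because the members were chosen with results known.

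The size of the values differed between arrays that carried the same RNA. On array 2 the log2 ratio of *Tsf1* was 53.1% of that on array 1, that of *MtnA* 44.5% and that of *MtnB* 55.4%. On array 4 it was 82.1% of that on array 3 for *Tsf1*, 55.1% for *MtnA* and 51.9% for *MtnD*. The same was seen across all genes. Of 203 genes that averaged at least a 2-fold change over arrays 1 and 2, 196 had the smaller value on array 2, with a median of 64.0% of that on array 1. Of 34 such genes on arrays 3 and 4, 29 had the smaller value on array 4, with a median of 59.3%. *MtnD* in extraction 1 rests on array 1 alone, whereas its value in extraction 2 averages arrays 3 and 4. Its extractions differed by 0.91, those of *Tsf1* by 0.79 and those of *MtnA* by 0.65, against a median of 0.23 over all tested genes and of 0.45 over the called ones. These medians are not a like comparison. For 1301 of the 1659 tested genes extraction 2 rests on array 3 alone, without the smaller values of array 4. In *MtnD*, *Tsf1* and *MtnA* extraction 1 held the value farther from 0.

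**Figure D3:**
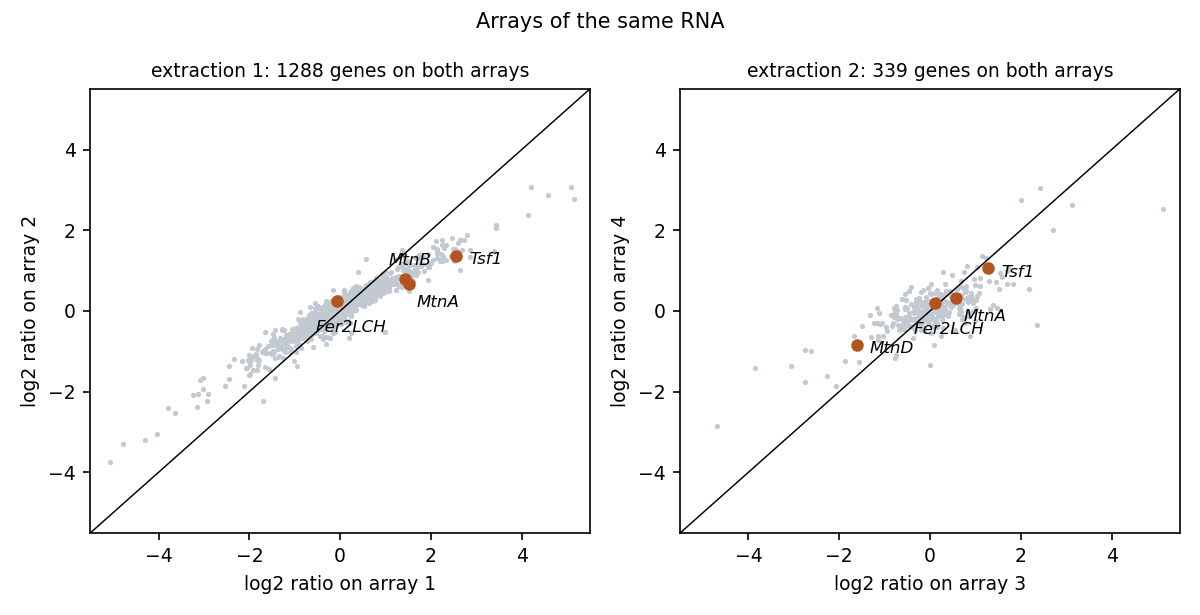
Log2 ratios (mutant larvae over wild-type pool) of the genes on both arrays of an extraction, array 1 against array 2 (left) and array 3 against array 4 (right). Grey points are all genes, orange points the members, and the line marks equal values. Genes far from 0 lie mostly closer to 0 on arrays 2 and 4, *Tsf1*, *MtnA* and *MtnD* included.

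Most other genes of metal handling could not be tested. Of 62 such genes in fixed lists, 52 had a probe, 21 had a value on some array and 12 could be tested. Of these 12, 1 was called higher and none lower (8.33%, near the 6.63% over all tested genes), with a median log2 ratio of 0.08 and a range from -0.64 to 1.07. The gene called higher was *IscU*, which encodes the scaffold on which iron-sulphur clusters are built. It had log2 ratios of 1.24 and 0.84 in extraction 1 and of 1.11 on array 3, with a mean of 1.07 ± 0.13 (SE, n = 2, adjusted p = 0.0284, limma), or 2.10-fold. Without array 1 its mean was 0.97, just under a 2-fold change. *Nfs1*, for the desulphurase that supplies the sulphur, had 0.27 ± 0.14, and the glutaredoxin gene *Grx5* had 0.23 ± 0.13. Neither passed.

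Among copper genes, *Atox1*, for the chaperone that hands copper to the export pump, had -0.56 on array 1 and -0.58 on array 3, with an adjusted p = 0.0635 in limma. The copper importer gene *Ctr1B* had a mean of 0.23 ± 0.13 (SE, n = 2, adjusted p = 0.285, limma). The 5 tested genes of zinc transporters of the ZnT and Zip families lay between -0.64 and 0.18, and none passed. The lowest was *Zip99C*, a Zip family gene whose product moves iron into the secretory pathway of the fly, with -0.70, -0.49 and -0.68 on arrays 1 to 3 and a mean of -0.64 ± 0.13 (adjusted p = 0.0547, limma). Its values were alike on all 3 arrays, while the mean ratio of 0.64-fold was within the 2-fold limit. *Irp-1B*, for a homologue of the iron regulatory proteins, had 0.01 ± 0.14, and *Urod*, of haem synthesis, -0.39 ± 0.25, with 0.05 in extraction 1 and -0.83 in extraction 2. *Tsf2*, a second transferrin gene, had -1.06 and -0.62 in extraction 1 and no value in extraction 2, so that its sign was opposite to that of *Tsf1* on both arrays. *Tsf3* and *Fer3HCH* had no value, and *MTF-1* had no probe in the annotation used.

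**Figure D4:**
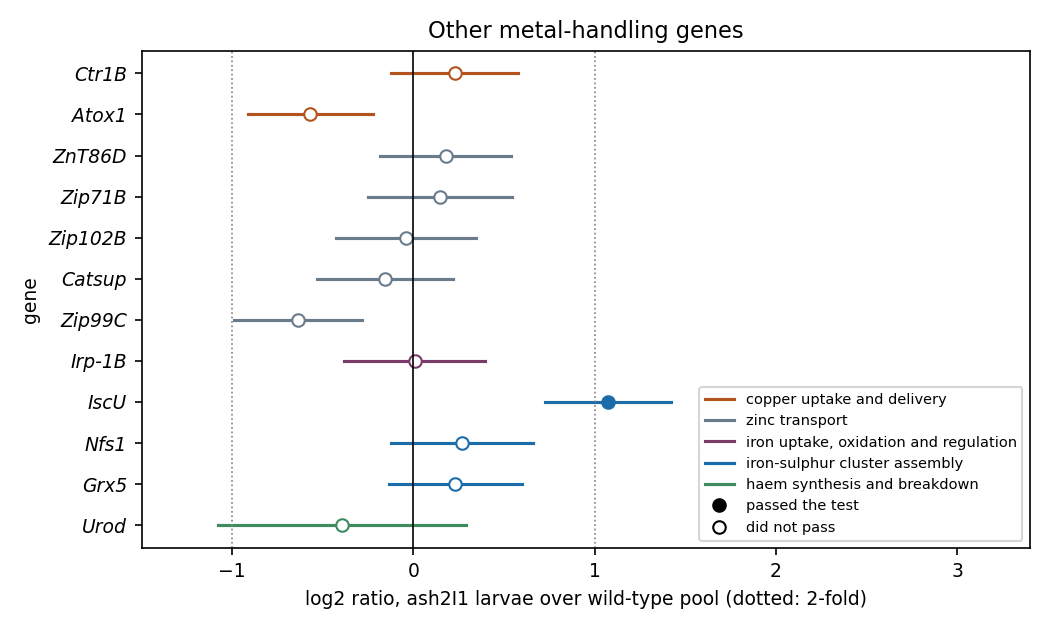
Log2 ratio (mutant larvae over wild-type pool, horizontal axis) of the 12 other metal-handling genes that could be tested, with the 95% interval of limma, coloured by list. Filled points passed the test and open points did not. *IscU*, at 1.07, is the only filled point.

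The genes most like a called member across the arrays were sought by Euclidean distance over the arrays that hold it, as a description. Among 277 genes on all 4 arrays, *Mal-A1*, for a maltase of the midgut, was nearest to *Tsf1*. It had 2.45, 1.35, 1.30 and 1.14 on arrays 1 to 4, at a distance of 0.14. *CG6839* and *CG10918* followed, at 0.32 and 0.51. For *MtnD*, among 296 genes on arrays 1, 3 and 4, the nearest were *Pcp*, a pupal cuticle gene, at 0.23, *CREG* at 0.30 and *Prosalpha1*, for a proteasome subunit, at 0.38. *Pcp* had -2.05, -1.66 and -0.63 on these arrays. The points share RNA, so a like pattern includes the difference in spread between arrays.

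Few genes near the metallothioneins were measured, so runs of changed neighbours could not be assessed there. On 3R, *MtnC* and *MtnB* are separated by 7 annotated genes, *MtnB* and *MtnE* by 2, and *MtnE* is next to *MtnD*. *MtnB* was positive and *MtnD* negative on array 1, the 1 array that holds both. The tested genes nearest to *MtnD* on either side, outside these metallothioneins, were *CG5023*, 25 genes away, with -0.63 ± 0.13, and *EloB*, 11 genes away, with -0.07 ± 0.13 (SE, n = 2), and neither passed. *MtnA* lies far from this group, and its nearest tested neighbours *RpS29* (0.18 ± 0.18) and *CG8507* (0.03 ± 0.13) did not pass. *Tsf1*, on the X chromosome that had been replaced in the mutant stock, lies between *betaCOP*, with 0.03 ± 0.13, and *Nt5b*, with -0.30 ± 0.13, and neither of these passed.

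Of the tissues in which metal is stored or carried, the fat body and the midgut had marker genes that were called. Over all 1659 tested genes, 3.8% were called higher and 2.83% lower. In the fat body list 3 of 5 tested genes, *Lsp2*, *Fbp1* and *Lsd-1*, were lower (log2 ratios of -2.11, -1.46 and -1.02), *apolpp* and *Fbp2* (-0.88 and 0.01) did not pass, and none was called higher. The yolk protein genes *Yp1* and *Yp2* of the same list had values in extraction 1 only, strongly positive, with 5.14 and 2.77 on arrays 1 and 2 for *Yp1* and 2.57 on array 2 for *Yp2*. In the midgut list 6 of 15 were higher, among them the midgut junction gene *Ssk* at 2.00 and the amylase gene *Amy-d* at 1.97, and 2 were lower, one of them the protease gene *Jon66Cii* at -1.85. Amylase genes are close copies, so the probe of *Amy-d* may read more than 1 of them. *Amy-p*, another amylase gene, is also among the 6, at 1.73, so these 2 may not be separate signals. For the copper cells of the midgut, *Vha100-4*, a proton pump subunit gene of these cells, had 1.14 on array 1 and 0.33 on array 3 (adjusted p = 0.119, limma) and the carbonic anhydrase gene *CAH1* had -0.22, -0.08 and -0.26 on arrays 1 to 3, with a mean of -0.21, and neither passed. *lab*, the defining regulator of these cells, had no probe in the annotation used. In the haemocyte list neither of 2 tested genes passed, *Col4a1* at 0.41 and *SPARC* at 0.53. Of its untested genes, *PPO2* had 2.32 and *He* 0.06, on array 1 only. No gene of the Malpighian tubule list had a value. In the salivary gland list 2 of 6 tested genes were called lower, *Sgs5bis* at -3.09 and *Eig71Ee* at -2.09, and none higher. The other 4 did not pass, with log2 ratios of both signs, from -2.78 to 0.80. Genes of the antimicrobial list, which also holds Bomanin genes and *IM33*, moved both ways. Some of them respond to infection as *Tsf1* does. Of 6 tested, *BomS6* and *IM33* were higher, at 3.68 and 1.59, *Listericin* was lower, at -1.05, and 3 did not pass. Others of this list had values in 1 extraction only and were not tested. *Drs* had -3.25 and -2.09 on arrays 1 and 2, and *BomS2* had 2.815 on array 1. *AttD* and *Def* had 0.18 and 0.51 on array 3. The part of tissue make-up and of the immune state in the values of the metal genes was not tested.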

How the data were processed

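Slides were scanned by the authors with GenePix Pro, spots that failed quality limits were removed, background was corrected with normexp, and ratios were normalised with OLIN within arrays and by the median absolute deviation between them. The deposited values are log2 ratios, with removed spots left empty. For limma and OLIN the sources used here give no version, and scanner files were not used here. Probes were named through the platform annotation and updated with the gene table of Release 6, by gene identifier for 12533 probes, accession for 120 and symbol for 21, while 490 kept their older symbol. Coordinates of that later build were used for gene order only. Probes with several symbols or none (101 and 3151) were left out. Probes were averaged per gene and array, then per extraction. The ratio was tested against 0 in limma 3.58.1 under R 4.3.3 (moderated variances, two-sided, Benjamini-Hochberg over 1659 genes, 95% intervals not adjusted), and the fit was tested on simulated data. Python 3.11.15, pandas 2.3.3, NumPy 2.4.6 and matplotlib 3.10.9 were used. No depth exists for arrays, and the number of arrays limits the precision. The members, the gene lists and the tests were chosen with earlier results of these data known. Genes were named as follows: the 7 members, up to 3 genes of each metal list by size and every called one, up to 3 called genes of each tissue or antimicrobial list, the 3 genes nearest to each called member on at least 3 arrays, and the neighbours of members. *Vha100-4*, *CAH1*, *lab*, *apolpp*, *Fbp2*, *Yp1*, *Yp2*, *Amy-p*, *Drs*, *BomS2*, *AttD*, *Def*, *MtnE*, *MtnF*, *MTF-1*, *Tsf3*, *Fer3HCH* and *Tsf2* were named in addition, after values were seen. The haemocyte genes *Col4a1*, *SPARC*, *PPO2* and *He* were likewise named after values were seen.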

Additional observations from a re-analysis of the deposited data

How the results depend on the processing

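No paired analysis was possible because all arrays belong to 1 group, set against 1 pool. *Tsf1* was called under all 10 alternatives that leave out no array and *MtnD* under 8 of them. The alternative without a fold limit keeps the same p-values, so a called gene could not fail it. The alternative with separate arrays counts arrays of the same RNA as replicates. *MtnD* could not be tested over genes on all 4 arrays, and with 1 probe per gene it just missed the limit, so 1 member was called in each of these. Leaving out 1 array at a time called 0 to 2 members and 0 to 123 genes (0 to 72 higher, 0 to 51 lower), against 110 with all arrays, with 55 calls when array 2 was left out and none of 358 genes when array 3 was (limma, of which 67 were under 0.05 before adjustment). Genes on all 4 arrays gave 49 calls of 278 (31 higher, 18 lower), unnamed probes 184 of 2312 (127 higher), and no limit on the fold change 168 (78 lower). In every other alternative the number of calls stayed within 1.5 times of 110. *MtnA* passed an adjusted p of 0.05, with less than a 2-fold change, with separate arrays (adjusted p = 0.0365), over genes on all 4 arrays (adjusted p = 0.00916) and without array 1 (adjusted p = 0.0306). The ferritin genes passed in no alternative. No member changed sign in any alternative. *Fbp2*, near 0, did, with -0.017 for separate arrays, -0.0089 for the random block, and -0.027 to 0.044 when 1 array was left out. The metallothionein median minus the iron median was -1.30 over genes on at least 3 arrays, where *MtnB*, *MtnC* and *Fer1HCH* drop out, 0.58 without extraction 2, and 0.12 to 0.22 when 1 array was left out. The signal behind each spot was not used here, so its limit on single ratios could not be given.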
